A study of Homo sapiens with 60 samples.

Results

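The 10 genes described here are p53-regulated genes of HepG2 cells, taken by name: CDKN1A, MDM2, BTG2, CCNG1, GDF15, SESN1, FAS, TP53I3, BBC3 and RRM2B. Each symbol mapped to 1 Ensembl ID, so the members are 10 of the 60675 gene IDs counted, and all 10 passed the filter on low counts with at least 121 counts in every library. HepG2 is an established hepatocellular carcinoma line. The cells were treated for 24 h with ethanol extracts of single herbs or of decoctions, which combine several herbs, or with vehicle. Aucklandiae Radix was given at 11.2, 56 and 280 ug/mL and Polygalae Radix at 10, 50 and 250 ug/mL, with the high dose set by its inhibition of the cells. Menthae Herba, Saposhnikoviae Radix and the decoctions Guibi-tang, Soyo-san, Saengmaek-san and Okbyeongpung-san were given at 20, 100 and 500 ug/mL. There were 3 libraries per dose for Menthae Herba, Saposhnikoviae Radix, Guibi-tang and Saengmaek-san, 2 for Aucklandiae Radix, Polygalae Radix and Soyo-san, 1 for Okbyeongpung-san, and 3 for vehicle, which was DMSO at a concentration on which the labels and the design text differ. All groups are the same cell line and carry the same batch label, D. The first part of the sample names places the extracts in numbered sets of 2, with vehicle under a set label of its own. What these sets stand for is not stated. Whether the replicates came from separate cultures is not stated, and p-values therefore reflect the spread among libraries alone, which could be technical.

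p53 is a transcription factor that is stabilised when DNA damage or other stress frees it from its inhibitor, the ubiquitin ligase MDM2. It then binds response elements near its target genes, which stop the cell cycle, repair DNA, limit oxidants or start apoptosis, and one of which is MDM2 itself, closing a feedback loop. Several of these genes are also known to respond to stress signals that do not need p53, among them CDKN1A, GDF15 and BBC3.

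Library depth ran from 17.5 to 38.9 M counts, with a median of 23.7 M, and levels are given as CPM, counts scaled to library size by TMM. The 10 liver markers were present in all 60 libraries. Of the markers of other cell types, PTPRC and CD3E (leukocytes), HBB (red cells), DCN and COL1A2 (stroma), KDR (endothelium) and SFTPC (lung) were at 0 in 54 to 60 libraries. Others were present in all 60, with medians of 1158 CPM for LYZ (blood list), 49.0 and 9.05 CPM for ACTA2 and PDGFRB (stroma list) and 323 and 147 CPM for VIL1 and LGR5 (lung and gut list), and their part in the results was not tested. The summed CPM of 10 HepG2 and hepatocyte markers was 24354 to 25279 at the high dose of Aucklandiae Radix, against 48274 to 49212 at its low dose. It was 18946 to 23109 at the high dose of Polygalae Radix, against 48842 to 50610 at its low dose. For Menthae Herba it was 24967 to 28060 at the high dose and 51344 to 53538 at the low dose. In bulk RNA, fewer cells of a type and less RNA per cell cannot be told apart. Mitochondrial genes took a mean 8.10% of counts at the high dose of Aucklandiae Radix and 13.2% at its low dose, and 17.6% at the high dose of Polygalae Radix and 12.5% at its low dose. Of the 3 vehicle libraries, replicate 1 differed from the others (chi-square per gene 13.7 and 14.7, against 2.64 between replicates 2 and 3). Other libraries stood apart from their group as far. The chi-square per gene was 13.4 and 15.5 between high-dose replicate 2 of Guibi-tang and the other libraries of its group, 15.6 between the medium-dose libraries of Polygalae Radix, 14.4 between low-dose replicates 2 and 3 of Saengmaek-san and 15.3 between the high-dose libraries of Polygalae Radix. In the last pair the level depended on GC content with opposite slopes, 0.125 and -0.101 log2 units per 10 percentage points of GC. The medium-dose libraries of Polygalae Radix had slopes of 0.196 and -0.0014. For Aucklandiae Radix the slopes were -0.150 and -0.125 at the high dose, against 0.003 and 0.0209 at the low dose. The part of these differences in the results below was not tested beyond the values given beside them.

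In GENCODE 29 (GRCh38) all members are protein-coding. CDKN1A (ENSG00000124762) lies at chr6:36676460-36687339 on the plus strand and MDM2 (ENSG00000135679) at chr12:68808176-68850686 on the plus strand. GDF15 (ENSG00000130513) lies at chr19:18374731-18389176, plus strand, and BBC3 (ENSG00000105327) at chr19:47220822-47232766, minus strand. CCNG1 (ENSG00000113328) lies at chr5:163437569-163446151 and BTG2 (ENSG00000159388) at chr1:203305491-203309602, both on the plus strand. SESN1 (ENSG00000080546) lies at chr6:108986437-109094819, minus strand, and FAS (ENSG00000026103) at chr10:88990582-89015785, plus strand. TP53I3 (ENSG00000115129) lies at chr2:24077433-24085861, minus strand, and RRM2B is ENSG00000048392. Exons of 6 members overlap exons of other genes: 8.93% of the exon bases of FAS are shared with ACTA2 on the opposite strand, 7.09% of those of SESN1 with an antisense RNA, and 4.79% of those of CDKN1A with the antisense RNA DINOL. The overlaps in MDM2, TP53I3 and BBC3 are with 5.91% or less of their exon bases per gene. The strand setting of the authors' counting is not given in the sources used here, so reads of these overlaps cannot be told apart.

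The sequence that p53 reads is a pair of adjoining elements of 10 bases each. RefSeq promoter windows (GRCh38.p14, 250 bases before to 50 after each annotated start) were found for 9 members and searched for it. A match was the p53 consensus of 2 such elements with no spacer, with the core C and G of each intact and at most 3 mismatches over 20 bases. The consensus is its own reverse complement, so one search covers both strands. Windows of 4 members held a match, as did those of 373 of the 27305 genes in the table (1.37%). The matches are shown because they set the members whose start carries such letters apart from those whose start does not, and capitals mark the match. Of MDM2 the 250 bases before the start of its internal promoter are given (chr12:68808767-68809016, plus strand), and of CDKN1A the same stretch without a match (chr6:36678464-36678713, plus strand). For FAS (chr10:88991309-88991328, plus strand), SESN1 (chr6:109009018-109009037, minus strand) and GDF15 (chr19:18386186-18386205, plus strand) only the matching bases are given, 5′ to 3′.
MDM2: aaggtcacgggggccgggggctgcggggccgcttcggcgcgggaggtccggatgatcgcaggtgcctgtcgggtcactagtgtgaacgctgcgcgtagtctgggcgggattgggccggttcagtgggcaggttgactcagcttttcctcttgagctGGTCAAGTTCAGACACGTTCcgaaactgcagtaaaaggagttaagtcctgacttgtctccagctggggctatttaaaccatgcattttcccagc
FAS: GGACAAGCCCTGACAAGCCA
SESN1: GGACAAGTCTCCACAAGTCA
GDF15: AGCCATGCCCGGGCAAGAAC
CDKN1A: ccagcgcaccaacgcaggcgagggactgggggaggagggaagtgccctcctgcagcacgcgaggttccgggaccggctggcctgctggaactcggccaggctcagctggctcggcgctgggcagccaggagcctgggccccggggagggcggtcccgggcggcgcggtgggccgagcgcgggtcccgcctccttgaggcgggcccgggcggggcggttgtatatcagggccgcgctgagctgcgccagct
These letters describe the windows and are not evidence of binding. The match in MDM2 had 2 mismatches and began at position -94 from the start; it lies within introns of the 7 GENCODE transcripts that span it. The match in FAS had 2 mismatches and began at position -122, inside 13 annotated transcripts and within an exon of 2 of them. The match in SESN1 had 3 mismatches and began at position -49, in an intron of 2 transcripts. The match in GDF15 had 3 mismatches and began at position 29, and it overlaps an exon of 3 transcripts and, at least in part, an untranslated region of 3 transcripts. The windows of CDKN1A, BTG2, CCNG1, TP53I3 and BBC3 held none. Bases outside the windows were not searched, so elements further from the start would be missed, and a window without a match does not mean a gene without one.

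In vehicle, the order of members per kilobase of exon was CCNG1 (50.6 CPM per kb), GDF15 (45.9), CDKN1A (26.2), MDM2 (17.9), TP53I3 (9.90), BTG2 (6.99), SESN1 (6.16), RRM2B (5.94), FAS (3.55) and BBC3 (2.69). Neighbours whose vehicle libraries overlapped per kilobase were CCNG1 with GDF15, and SESN1 with RRM2B. Over all 60 libraries GDF15 varied most, from 79.1 to 809 CPM (10.2-fold), followed by CDKN1A from 56.7 to 312 CPM (5.50-fold) and BBC3 from 5.88 to 31.9 CPM (5.42-fold). FAS varied least, from 12.9 to 20.5 CPM (1.59-fold).

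The high dose of each extract was set against its own low dose in edgeR's quasi-likelihood test, with Benjamini-Hochberg adjustment over the 16982 genes tested and a gene called at an adjusted p under 0.05. This comparison stays within a set and does not use vehicle. The p53 targets did not move as a block: over the 7 replicated extracts 16 of the 70 member-by-extract comparisons were higher, 11 were lower and 43 were not called. GDF15 was higher in 5 extracts, MDM2 in 4 and CDKN1A in 3, while CCNG1 was lower in 3 extracts and BTG2 and SESN1 in 2. Aucklandiae Radix had 5 members higher and 4 lower, where 69.4% of all genes were called (33.9% higher, 35.5% lower). Polygalae Radix had 2 higher and 6 lower, where 64.1% of all genes were called (31.1% higher, 33% lower). Guibi-tang had 3 higher and 1 lower (34.3% of all genes, 16.8% higher and 17.5% lower). Menthae Herba had 4 higher (23.3% of all genes, 10.8% higher) and Soyo-san 2 higher (3.95%, 2.13% higher). Saengmaek-san and Saposhnikoviae Radix had 0 members called by edgeR or DESeq2, against 0.436% and 0.83% of all genes called by edgeR, and 1 and 2 members had an unadjusted p under 0.05. In Aucklandiae Radix and Polygalae Radix most genes of any kind were called, so 9 and 8 members called there stand close to the background. TMM scaling takes most genes as unchanged, so rises and falls there are relative to the typical gene.

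**Figure D1:**
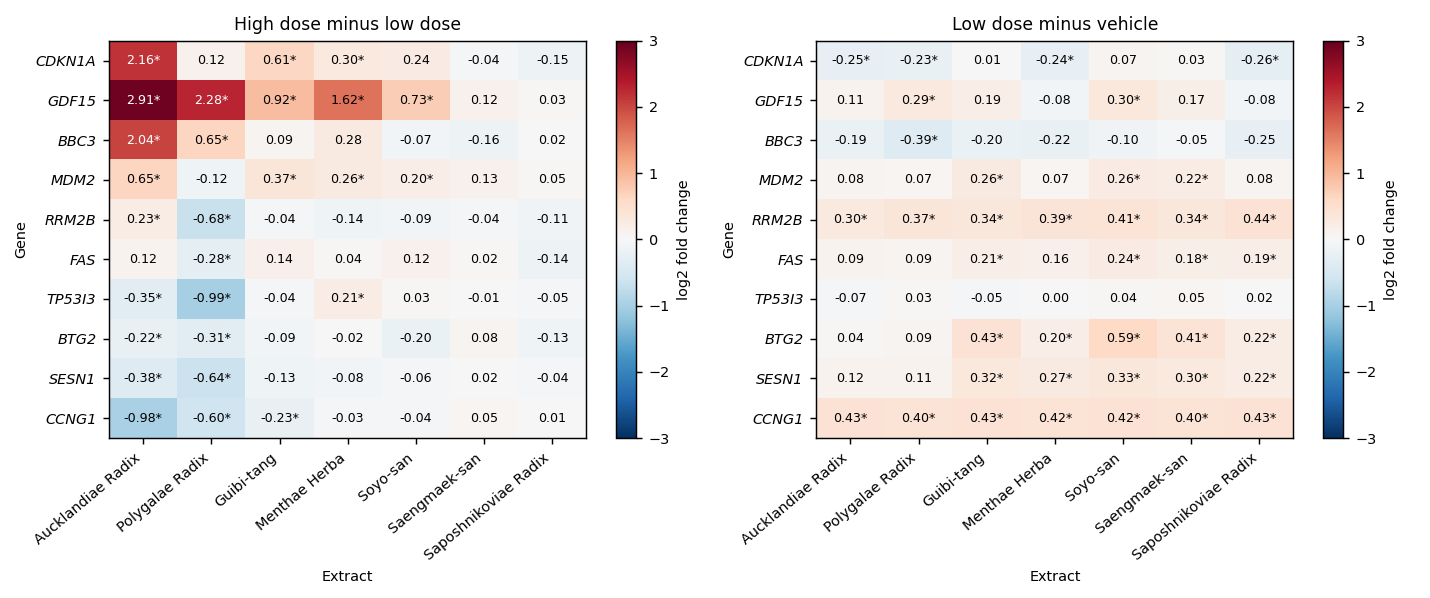
Log2 fold changes of the 10 members (rows) in the 7 replicated extracts (columns), high minus low dose on the left and low dose minus vehicle on the right, with an asterisk where the edgeR adjusted p was under 0.05. On the left GDF15 reaches 2.91 and CDKN1A 2.16 in Aucklandiae Radix while CCNG1 is at -0.98; on the right CCNG1 lies between 0.40 and 0.43 in all 7 extracts.

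CDKN1A encodes p21, the inhibitor of cyclin-dependent kinases through which p53 halts the cell cycle. It had 312 and 288 CPM at the high dose of Aucklandiae Radix, against 67.6 and 65.9 CPM at the low dose. Both high-dose libraries lay above every other library of the series, at a mean 4.49 times that of the low dose (log2 fold change 2.16 ± 0.10 SE, edgeR adjusted p = 7.28e-24). Guibi-tang had 128, 106 and 135 CPM at the high dose, against 79.9, 77.2 and 83.4 CPM at the low dose. These groups did not overlap, and CDKN1A rose (0.61 ± 0.08, edgeR adjusted p = 2.38e-08; 0.71 without high-dose replicate 2). Menthae Herba had 90.1, 75.8 and 84.3 CPM at the high dose, against 69.0, 69.3 and 64.1 CPM at the low dose, again without overlap (0.30 ± 0.08, edgeR adjusted p = 0.00473). Soyo-san had 107 and 91.2 CPM at the high dose and 88.1 and 79.2 CPM at the low dose. These groups did not overlap either, but the difference of 0.24 ± 0.10 did not pass (edgeR adjusted p = 0.23).

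For Polygalae Radix CDKN1A stood at 83.0 and 65.3 CPM at the high dose and at 72.2 and 64.3 CPM at the low dose. The groups overlapped and the difference was 0.12 ± 0.10 (edgeR adjusted p = 0.3). It was 0.26 and past the threshold with the GC trend of each library removed (adjusted p = 0.0074), and 0.27 without high-dose replicate 3 (adjusted p = 0.0355). In Saengmaek-san CDKN1A had 84.2, 73.0 and 78.9 CPM at the high dose and 78.5, 86.4 and 78.3 CPM at the low dose, in Saposhnikoviae Radix 61.7, 59.6 and 57.9 CPM at the high dose and 63.0, 70.2 and 66.4 CPM at the low dose. Their log2 differences were -0.04 ± 0.08 and -0.15 ± 0.08, and neither passed, although the groups of Saposhnikoviae Radix did not overlap.

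MDM2, the ligase that marks p53 for breakdown, rose in the same 3 extracts as CDKN1A and in Soyo-san. It had 403 and 383 CPM at the high dose of Aucklandiae Radix, against 261 and 238 CPM at the low dose (0.65 ± 0.06, edgeR adjusted p = 2.57e-13). In Guibi-tang it had 338, 403 and 356 CPM at the high dose, against 283, 289 and 278 CPM at the low dose (0.37 ± 0.05, edgeR adjusted p = 3.51e-08). The libraries of the high and low dose did not overlap in either extract, and in Guibi-tang the difference was 0.29 without high-dose replicate 2. In Saengmaek-san MDM2 was not called, although its high-dose libraries (300 to 302 CPM) lay above its low-dose libraries (270 to 280 CPM). Menthae Herba had 300.5, 299 and 294 CPM at the high dose, against 246, 251 and 245 CPM at the low dose (0.26 ± 0.05, edgeR adjusted p = 4.16e-05). Soyo-san had 333 and 317 CPM at the high dose, against 285 and 279 CPM at the low dose (0.20 ± 0.06, edgeR adjusted p = 0.0456). The Soyo-san call was lost when any of its 4 libraries was left out, with differences of 0.17 to 0.24. In Polygalae Radix MDM2 was at 210.0 and 246 CPM at the high dose and 249 and 245 CPM at the low dose, so that the groups overlapped (-0.12 ± 0.06, edgeR adjusted p = 0.0674). Without high-dose replicate 3 that difference was -0.25 (adjusted p = 0.00146).

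GDF15, a secreted stress cytokine of the TGF-beta family, was the member with the largest rise in every extract in which it was called. Aucklandiae Radix had 809 and 748 CPM at the high dose, against 102 and 104 CPM at the low dose, 7.56 times the mean (2.91 ± 0.12, edgeR adjusted p = 3.57e-25). Polygalae Radix had 645 and 493 CPM at the high dose, against 124 and 109.9 CPM at the low dose, 4.86 times the mean (2.28 ± 0.12, edgeR adjusted p = 1.92e-21). In Polygalae Radix this rise came with the overlapping CDKN1A and MDM2 levels given above. Menthae Herba had 349, 249 and 235 CPM at the high dose, against 89.1, 88.4 and 92.7 CPM at the low dose (1.62 ± 0.10, edgeR adjusted p = 5.72e-18). Guibi-tang had 205, 176 and 238 CPM at the high dose, against 112, 104 and 109.8 CPM at the low dose (0.92 ± 0.10, edgeR adjusted p = 1.07e-10). Soyo-san had 189.8 and 202 CPM at the high dose, against 116 and 119 CPM at the low dose (0.73 ± 0.12, edgeR adjusted p = 2.77e-05). High and low dose did not overlap in any of the 5 extracts, and in Guibi-tang GDF15 was higher by 1.03 without high-dose replicate 2. Saengmaek-san had 113, 117 and 119 CPM at the high dose and 103, 107 and 110.0 CPM at the low dose, and Saposhnikoviae Radix 90.9, 90.2 and 94.6 CPM at the high dose and 83.5, 91.9 and 96.0 CPM at the low dose. The differences of 0.12 ± 0.10 and 0.03 ± 0.10 did not pass, although in Saengmaek-san the high-dose libraries lay above the low-dose libraries.

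BBC3 encodes PUMA, a BH3-only protein that starts mitochondrial apoptosis. It had 31.9 and 29.3 CPM at the high dose of Aucklandiae Radix, against 7.42 and 7.45 CPM at the low dose (2.04 ± 0.13, edgeR adjusted p = 4.14e-18). The high-dose libraries were the highest of the series, and the next highest library, of Polygalae Radix at the high dose, had 12.3 CPM. Polygalae Radix had 12.3 and 8.09 CPM at the high dose, against 6.73 and 6.33 CPM at the low dose (0.65 ± 0.15, edgeR adjusted p = 0.000144). That call rested on the first of these libraries: without high-dose replicate 2 the difference was 0.31 (adjusted p = 0.121). Menthae Herba had 10.9, 6.99 and 8.46 CPM at the high dose and 6.72, 8.64 and 6.50 CPM at the low dose, overlapping groups with a difference of 0.28 ± 0.12 (edgeR adjusted p = 0.1). In the 4 other extracts the differences were between -0.16 and 0.09, and none passed.

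**Figure D2:**
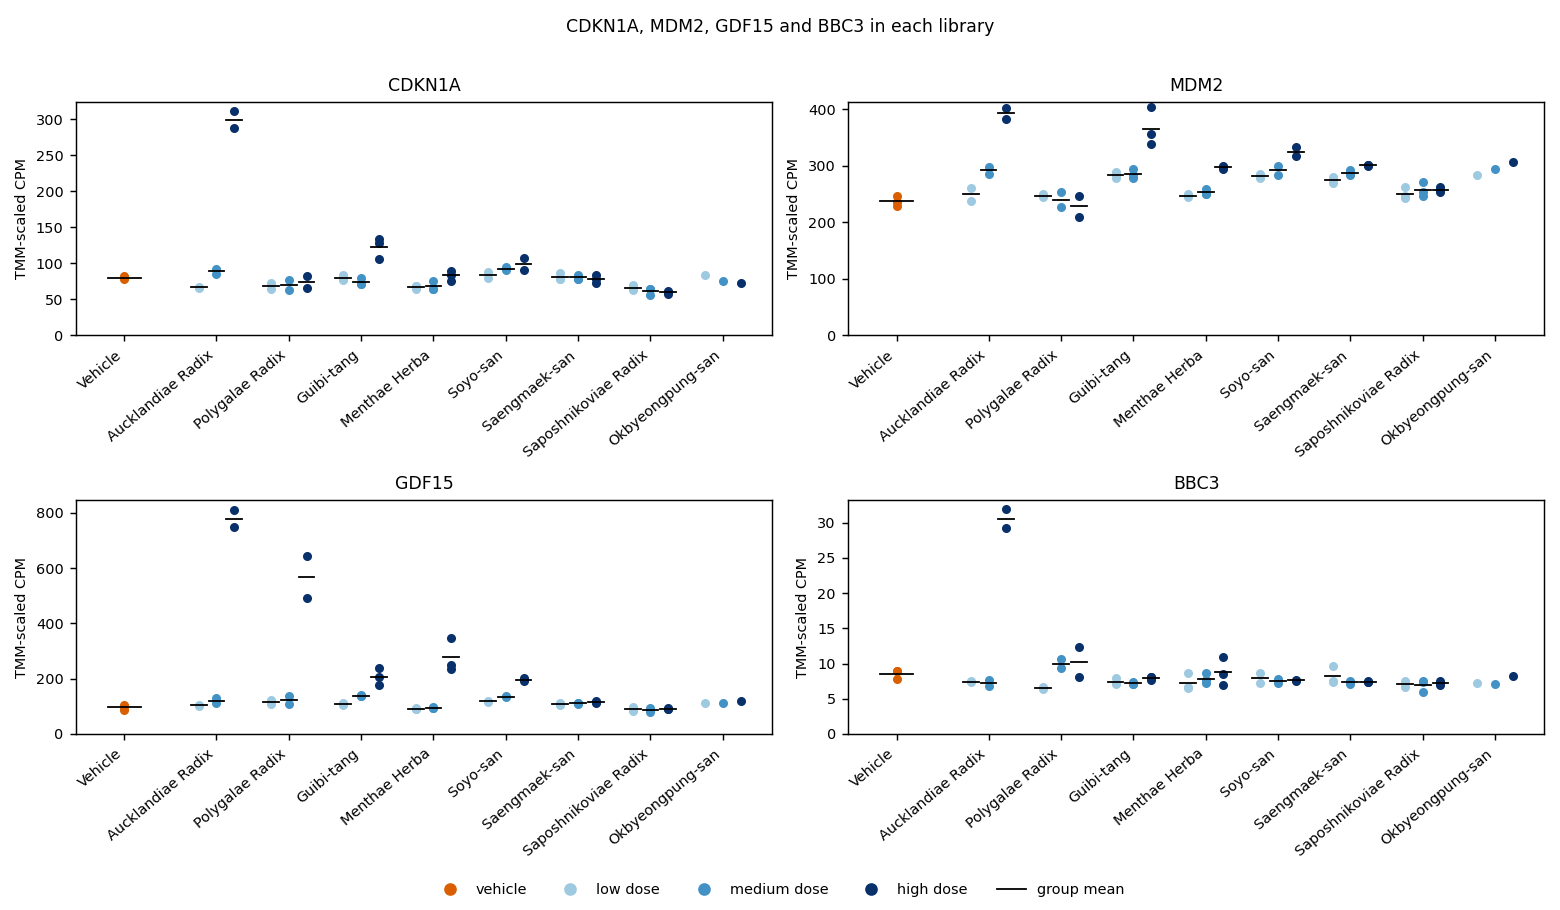
TMM-scaled CPM of CDKN1A, MDM2, GDF15 and BBC3 (panels, linear axes from 0) in every library, by extract and dose, with vehicle at the left. Points are libraries and lines are means of groups with 2 or more libraries; the high dose of Aucklandiae Radix stands above all others for CDKN1A (288 and 312 CPM), and for GDF15 5 extracts climb at the high dose.

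FAS, a death receptor at the cell surface, and TP53I3, a quinone oxidoreductase linked to oxidant production, are further targets tied to apoptosis. FAS had 12.9 and 13.6 CPM at the high dose of Polygalae Radix, against 17.1 and 15.3 CPM at the low dose (-0.28 ± 0.09, edgeR adjusted p = 0.00459). The call was lost with the GC trend removed (-0.17, adjusted p = 0.071) and without high-dose replicate 2 (-0.25) or low-dose replicate 2 (-0.22). FAS was called in no other extract, with differences of -0.14 to 0.14. TP53I3 had 12.9 and 10.6 CPM at the high dose of Polygalae Radix, against 22.8 and 23.5 CPM at the low dose (-0.99 ± 0.10, edgeR adjusted p = 2.12e-12). These high-dose libraries were the lowest of the series, with no overlap. In Aucklandiae Radix TP53I3 had 17.1 and 17.2 CPM at the high dose, against 22.3 and 21.1 CPM at the low dose (-0.35 ± 0.09, edgeR adjusted p = 0.00117), and with the GC trend removed the difference was -0.14 (adjusted p = 0.127). Menthae Herba had 25.6, 26.7 and 26.8 CPM at the high dose, against 22.2, 22.7 and 23.1 CPM at the low dose, which did not overlap (0.21 ± 0.07, edgeR adjusted p = 0.0285). Leaving out any of 4 of its libraries lost this call at differences of 0.20 to 0.22.

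CCNG1, which encodes cyclin G1, a partner of MDM2 and of a phosphatase, had the highest level per kilobase of the members in vehicle, and it fell in 3 extracts. It had 109 and 105 CPM at the high dose of Aucklandiae Radix, against 214 and 206 CPM at the low dose (-0.98 ± 0.07, edgeR adjusted p = 1.25e-17). Polygalae Radix had 122 and 151 CPM at the high dose, against 213 and 199 CPM at the low dose (-0.60 ± 0.07, edgeR adjusted p = 4.49e-11). Guibi-tang had 176, 183 and 180.2 CPM at the high dose, against 205, 216 and 211 CPM at the low dose (-0.23 ± 0.05, edgeR adjusted p = 0.000431). High-dose libraries lay below low-dose libraries in all 3 of these extracts, and in Guibi-tang the difference was -0.24 without high-dose replicate 2. In the 4 other extracts the difference was between -0.04 and 0.05.

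SESN1 encodes sestrin 1, which restrains mTORC1 and supports antioxidant defence, and BTG2 encodes an antiproliferative partner of the deadenylase complex. SESN1 had 21.3 and 22.7 CPM at the high dose of Polygalae Radix, against 34.6 and 33.6 CPM at the low dose (-0.64 ± 0.07, edgeR adjusted p = 1.33e-10). Aucklandiae Radix had 25.3 and 27.4 CPM at the high dose, against 32.3 and 36.0 CPM at the low dose (-0.38 ± 0.07, edgeR adjusted p = 1.06e-05). No library of the high dose reached the low dose in either extract. BTG2 had 17.3 and 15.8 CPM at the high dose of Polygalae Radix, against 21.4 and 19.7 CPM at the low dose (-0.31 ± 0.07, edgeR adjusted p = 0.000183). For Aucklandiae Radix BTG2 had 17.0 and 17.1 CPM at the high dose, against 21 and 18.5 CPM at the low dose (-0.22 ± 0.07, edgeR adjusted p = 0.00648). This last call was lost with the GC trend removed (-0.08), with DESeq2 (-0.18) and without low-dose replicate 2 (-0.13).

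RRM2B encodes the p53-inducible subunit of ribonucleotide reductase, which supplies nucleotides for repair, and its direction differed between the extracts of one set. It had 48.6 and 46.8 CPM at the high dose of Aucklandiae Radix, against 41.1 and 39.7 CPM at the low dose (0.23 ± 0.08, edgeR adjusted p = 0.012). In Polygalae Radix it had 22.4 and 31.2 CPM at the high dose, against 44.3 and 41.0 CPM at the low dose (-0.68 ± 0.09, edgeR adjusted p = 3.02e-09). The groups did not overlap in either extract, on opposite sides. High-dose libraries also lay below low-dose libraries in Menthae Herba, Saposhnikoviae Radix, Saengmaek-san and Soyo-san, where RRM2B was not called. Without Aucklandiae Radix high-dose replicate 2 or low-dose replicate 3 the first difference was 0.21 or 0.20 and did not pass.

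**Figure D3:**
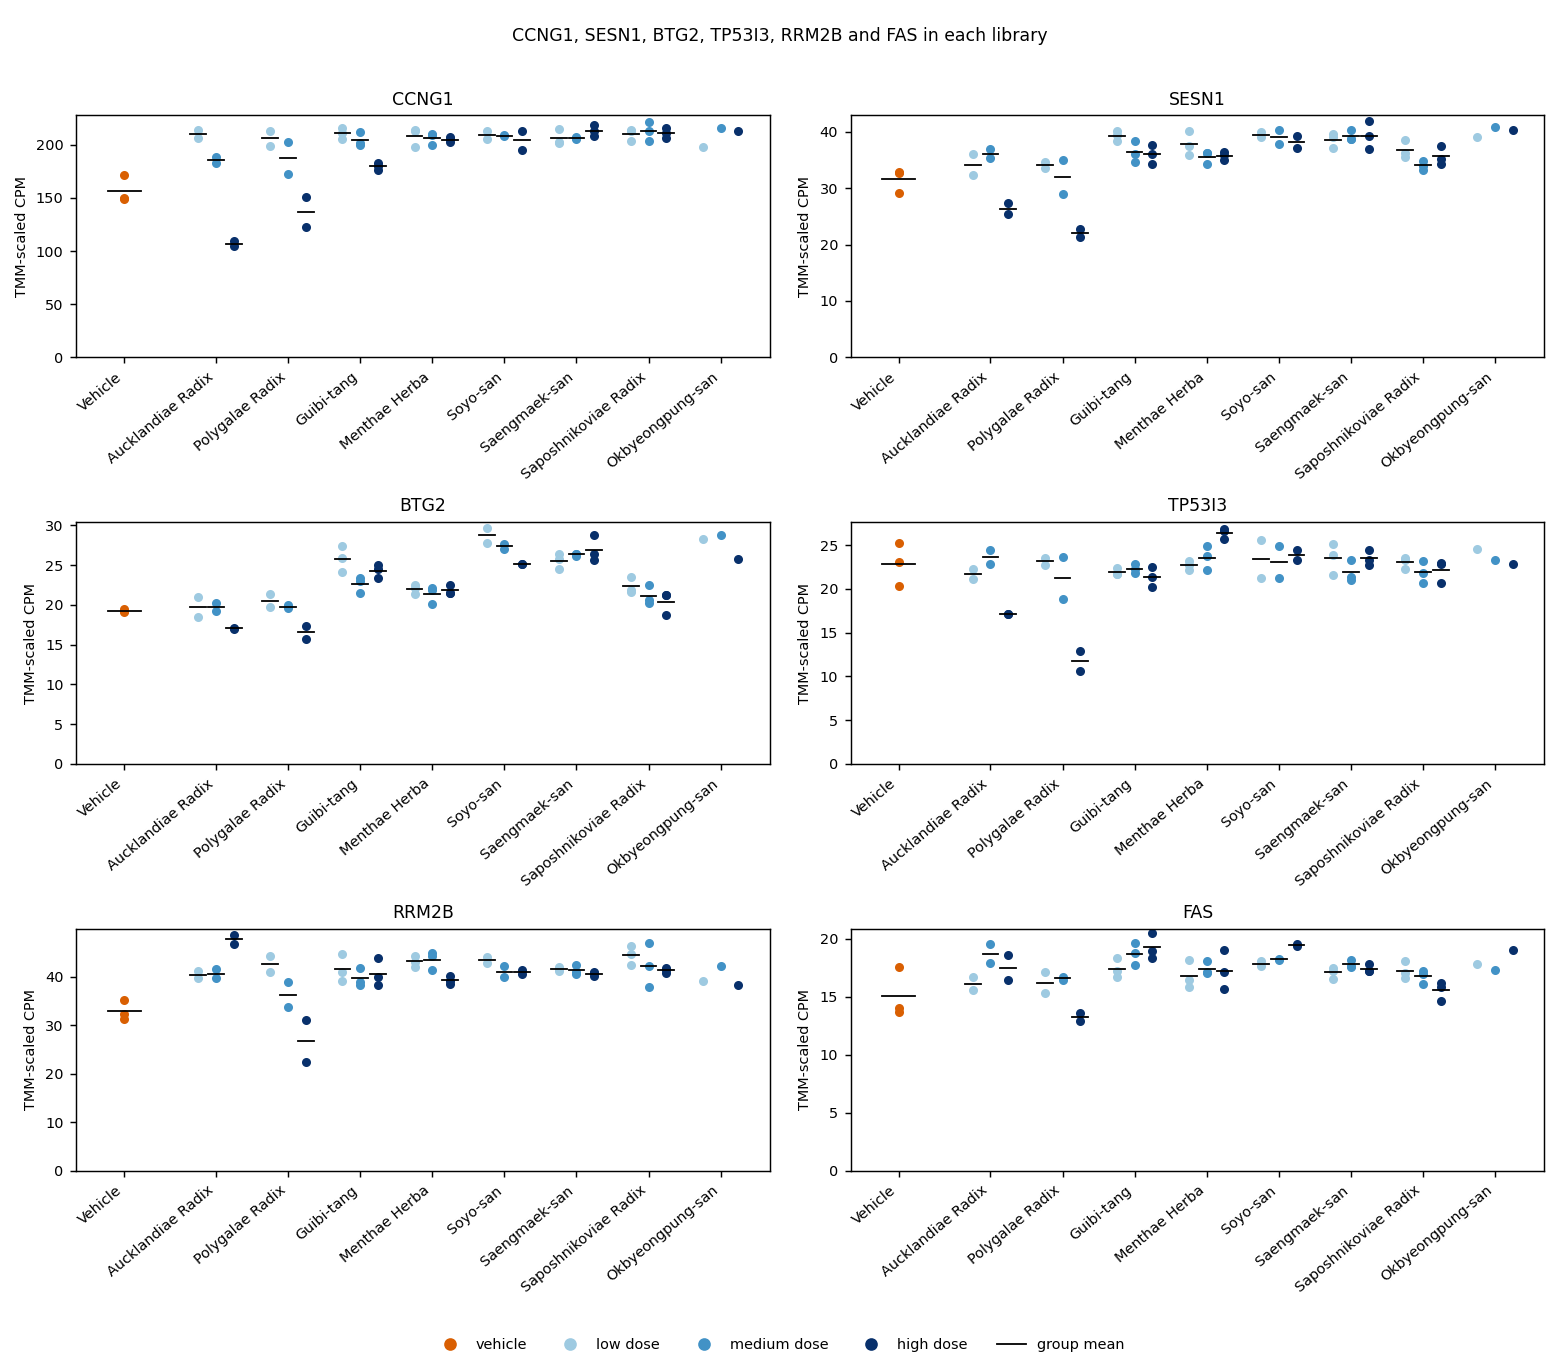
TMM-scaled CPM of CCNG1, SESN1, BTG2, TP53I3, RRM2B and FAS (panels, linear axes from 0) in every library, by extract and dose, with vehicle at the left; points are libraries and lines are group means. The lowest levels are at the high dose of Polygalae Radix or Aucklandiae Radix, such as 105 and 109 CPM of CCNG1 in Aucklandiae Radix, and vehicle lies below the low doses for CCNG1 and RRM2B.

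Few members had moved by the medium dose. Of the 70 comparisons of the medium with the low dose, 4 were higher and 1 was lower. In Aucklandiae Radix (4.35% of all genes called) CDKN1A had 91.6 and 85.9 CPM at the medium dose, against 67.6 and 65.9 CPM at the low dose (0.41 ± 0.10, edgeR adjusted p = 0.00866), with no overlap. MDM2 had 298 and 286 CPM at that dose, against 261 and 238 CPM (0.22 ± 0.06, edgeR adjusted p = 0.0192). GDF15 of the same extract was at 128 and 113 CPM at the medium dose and 102 and 104 CPM at the low dose, which did not pass. In Guibi-tang (3.6% of all genes) GDF15 had 139, 139 and 137 CPM at the medium dose, against 112, 104 and 109.8 CPM at the low dose (0.35 ± 0.10, edgeR adjusted p = 0.0334), and BTG2 was lower (-0.19 ± 0.06, adjusted p = 0.0364). In Polygalae Radix (8.41% of all genes) BBC3 had 10.7 and 9.32 CPM at the medium dose, against 6.73 and 6.33 CPM at the low dose (0.62 ± 0.15, edgeR adjusted p = 0.00564). Each of these 5 calls was lost when some single library was left out. Without medium-dose replicate 3 of Polygalae Radix, CCNG1 (-0.26), SESN1 (-0.24) and RRM2B (-0.34) passed as well, by edgeR's test over all genes. The 4 other extracts had 0 members called by edgeR or DESeq2 and 0 at an unadjusted p under 0.05, at 0.118% of all genes for Menthae Herba, 0.0118% for Saposhnikoviae Radix, 0.00589% for Soyo-san and 0% for Saengmaek-san.

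Many members already differed from vehicle at the low dose. Mitochondrial genes took a mean 11.6% to 13.2% of counts in the low-dose groups, against 16.9% in vehicle, and the part of this in the comparisons with vehicle was not tested. CCNG1 was higher than vehicle at the low dose of all 7 extracts, by 0.40 to 0.43 on the log2 scale, with low-dose group means of 206 to 211 CPM, against 171, 149.9 and 149 CPM in vehicle. RRM2B was higher at all 7 low doses by 0.30 to 0.44, and BTG2 and SESN1 at 5 of 7. In all, 33 of 70 comparisons were higher and 5 lower. Of all genes, 16.9% to 20.4% were higher and 16.4% to 19.7% lower at the low dose, depending on the extract. Per extract, 3 members were called at the low dose of Aucklandiae Radix (33.3% of all genes), 5 in Polygalae Radix (36.1%), 5 in Menthae Herba (38%) and 6 in Saposhnikoviae Radix (37.6%). The decoctions had 6 called in Saengmaek-san (38.7%), 6 in Guibi-tang (40.1%) and 7 in Soyo-san (34.2%). CDKN1A was lower than vehicle at 4 low doses, by up to -0.26 in Saposhnikoviae Radix. These extracts share the same 3 vehicle libraries, and set and treatment cannot be told apart here. Vehicle libraries had GC slopes of 0.10 to 0.24 log2 units per 10 percentage points, against a median of -0.01 in the 53 libraries outside vehicle and the high doses of Aucklandiae Radix and Polygalae Radix. With the GC trend removed CCNG1 was higher by 0.20 to 0.23 at the 7 low doses, RRM2B stayed past the threshold at 5 and SESN1 at 0. CDKN1A then lay between -0.08 and 0.26 over the 7 low doses, against -0.26 to 0.07 before, and passed at 3.

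At the high dose 42 of 70 comparisons with vehicle were higher and 11 lower. Aucklandiae Radix had 6 members higher and 4 lower (73.3% of all genes called, 36.6% higher and 36.7% lower). Polygalae Radix had 1 higher and 6 lower (66.9% of all genes, 33.1% higher and 33.8% lower). Guibi-tang (51%, 25.6% higher), Menthae Herba (48.2%, 24% higher) and Soyo-san (38.8%, 19.8% higher) each had 8 members higher. Saengmaek-san had 7 higher (40.5%, 20.5% higher) and Saposhnikoviae Radix 4 higher and 1 lower (40.1%, 20.2% higher and 19.9% lower). In Saengmaek-san and Saposhnikoviae Radix no member was called between high and low dose. CDKN1A had 61.7, 59.6 and 57.9 CPM at the high dose of Saposhnikoviae Radix, against 78.0, 82.7 and 79.2 CPM in vehicle, with no overlap (-0.41 ± 0.08, edgeR adjusted p = 9.31e-05). GDF15 had 809 and 748 CPM at the high dose of Aucklandiae Radix, against 85.9, 105 and 96.3 CPM in vehicle (3.03 ± 0.11, edgeR adjusted p = 2.68e-28), and CDKN1A there was higher by 1.91 ± 0.09 (adjusted p = 2.55e-24). With the low doses pooled in place of vehicle, 22 comparisons were higher and 14 lower. The share of all genes called in that setting is not given here, so the change in count is not read as particular to the members.

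Extracts that shared a set were compared directly, as the difference of their changes between high and low dose. Menthae Herba exceeded Saposhnikoviae Radix, at matched doses, by 1.60 ± 0.14 for GDF15 (edgeR adjusted p = 3.95e-12), by 0.45 ± 0.12 for CDKN1A (adjusted p = 0.00637) and by 0.22 ± 0.07 for MDM2 (adjusted p = 0.0325). These were 3 of the 10 members, among 10.6% of all genes. Guibi-tang exceeded Saengmaek-san, also at matched doses, by 0.80 ± 0.14 for GDF15 (edgeR adjusted p = 1.71e-05), by 0.65 ± 0.11 for CDKN1A (adjusted p = 2.23e-05) and by 0.24 ± 0.07 for MDM2 (adjusted p = 0.00885). CCNG1 was lower in Guibi-tang by comparison (-0.28 ± 0.07, adjusted p = 0.00447), so that 4 members differed, among 19.6% of all genes. Aucklandiae Radix and Polygalae Radix were given at unlike doses, and at their own doses 9 members differed, among 60.1% of all genes. For CDKN1A the difference was 2.04 ± 0.14 (edgeR adjusted p = 3.35e-17) and for BBC3 1.38 ± 0.20 (adjusted p = 7.51e-08). BTG2, at 0.09, did not pass.

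A wider list held 34 other p53 targets, of which 33 were tested. In Aucklandiae Radix, where 33.9% of all genes were higher and 35.5% lower, 16 of the list were higher and 13 lower at the high dose against the low dose. The list median was 0.08 beside -0.02 over all genes. Among the largest differences were those of IER5 (3.30), PMAIP1 (2.76), which encodes the BH3-only protein NOXA, and PLK2 (2.71), a kinase. In Polygalae Radix (31.1% of all genes higher, 33% lower) 8 were higher and 18 lower, with a median of -0.29 beside -0.01. There TRIM22 (-2.42), FDXR (-1.73), a mitochondrial ferredoxin reductase, SPATA18 (-1.53) and RPS27L (-1.51), a ribosomal protein relative, changed most. Guibi-tang (16.8% of all genes higher, 17.5% lower) had 7 higher and 8 lower, among them TRIM22 (-1.41). Menthae Herba (10.8% of all genes higher, 12.5% lower) had 6 higher and 4 lower, among them PMAIP1 (1.20). Soyo-san had 2 higher and 1 lower, among them PERP (0.36) and DRAM1 (-0.27). Saengmaek-san and Saposhnikoviae Radix each had 1 lower, DDB2 (-0.22) and TP53INP1 (-0.26). The levels of TRIM22 and PMAIP1 were low, with medians of 1.26 and 1.25 CPM over all libraries.

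Regulators of p53 changed in both directions between high and low dose, by edgeR's adjusted p, mostly in Aucklandiae Radix and Polygalae Radix. There 69.4% and 64.1% of all genes were called. MDM4, the relative of MDM2 that also restrains p53, was higher in both extracts (1.19 and 0.73). ATM, ATR and CHEK2, kinases that report DNA damage to p53, were lower in both: ATM by -0.77 in each, ATR by -0.70 and -0.71, and CHEK2 by -0.74 and -0.54. CHEK2 was also lower in Guibi-tang (-0.21). HIPK2, a kinase of p53, was lower in Aucklandiae Radix (-1.70) and higher in Polygalae Radix (0.35). TP53BP1 was lower in Aucklandiae Radix (-0.61), Polygalae Radix (-1.22) and Guibi-tang (-0.26). CHEK1 (-0.28 in Aucklandiae Radix, -0.20 in Guibi-tang), USP7 (-0.17 in Aucklandiae Radix, 0.25 in Polygalae Radix) and CDKN2A (0.48 in Polygalae Radix, 0.44 in Menthae Herba) also passed.

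Relatives and partners did not all move with the member they resemble. In Aucklandiae Radix SESN2 (2.53), CCNG2 (1.60) and BTG1 (1.82) were higher while SESN1, CCNG1 and BTG2 were lower. BCL2L11, another BH3-only gene, was higher there (0.63), as was BBC3, CASP8 (-0.28) and CDKN1B (-0.28), which encodes the CDK inhibitor p27, were lower, and the ribonucleotide reductase genes RRM1 (-0.98) and RRM2 (-1.25) were lower where RRM2B was higher. In Polygalae Radix BTG1 (0.72), BCL2L11 (0.69), CDKN1B (0.40) and RRM2 (0.14) were higher, and CCNG2 (-0.57) and RRM1 (-1.78) lower. Guibi-tang had 2 of the 10 tested relatives higher, FADD (0.31) and CASP8 (0.29), and 7 lower: CCNG2 (-0.63), BTG1 (-0.56), CDKN1B (-0.31), SESN3 (-0.30), RRM1 (-0.29), BCL2L11 (-0.27) and RRM2 (-0.23). Menthae Herba had 5 higher, SESN2 (0.79), FADD (0.27), RRM2 (0.23), CASP8 (0.16) and RRM1 (0.13), and 1 lower, BCL2L11 (-0.26). Soyo-san had CASP8 higher (0.22). In Saengmaek-san and Saposhnikoviae Radix no relative was called. CDKN1C did not pass the filter on low counts. Of all genes 69.4% were called in Aucklandiae Radix, 64.1% in Polygalae Radix, 34.3% in Guibi-tang, 23.3% in Menthae Herba and 3.95% in Soyo-san.

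Genes of the integrated stress response, an ATF4-centred programme that several members are also known to answer to, were higher in 9 of 10 tested cases at the high dose of Aucklandiae Radix, with a median of 1.84. PPP1R15A (4.22), ATF3 (3.88), SESN2 (2.53) and ASNS (2.21) were the most changed there. Menthae Herba had 8 higher and none lower, with a median of 0.66, led by DDIT4 (1.78) and ATF3 (1.28). Polygalae Radix had 3 higher, among them ATF3 (1.86) and PPP1R15A (1.61), and 4 lower, among them ASNS (-2.25) and PSAT1 (-1.71). Guibi-tang had 1 higher, PPP1R15A (0.39), and 4 lower, led by ATF3 (-0.81). Saposhnikoviae Radix had 1 lower, ASNS (-0.40), and none was called in Soyo-san or Saengmaek-san. CHAC1 was not tested, and SESN2 stands on 3 of these lists. Of all genes 33.9% were higher in Aucklandiae Radix and 10.8% in Menthae Herba. In Polygalae Radix 31.1% of all genes were higher and 33% lower, and in Guibi-tang 16.8% and 17.5%.

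Cell cycle genes that p21 is known to repress through the DREAM complex were mostly lower at the high doses of 4 extracts. Aucklandiae Radix had 16 of 18 lower and 1 higher (median -0.99), led by TOP2A (-1.78), CCNA2 (-1.66), PLK1 (-1.45) and MKI67 (-1.31). Guibi-tang had 16 lower (median -0.61), led by TOP2A (-0.99), CCNB2 (-0.95) and PLK1 (-0.91). Polygalae Radix, where CDKN1A did not pass, had 13 lower and 5 higher (median -0.49), with TOP2A at -2.04, MCM5 at -1.45 and CCNE2 at 1.38. Menthae Herba had 12 lower and 1 higher (median -0.22). Soyo-san had 1 lower, BIRC5 (-0.18), and Saengmaek-san and Saposhnikoviae Radix had none called. The medians over all genes in these contrasts were between -0.02 and 0.00, close to 0 as TMM scaling brings them. The list medians are therefore relative to that centring. Of all genes 35.5% were lower in Aucklandiae Radix, 33% in Polygalae Radix, 17.5% in Guibi-tang and 12.5% in Menthae Herba.

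**Figure D4:**
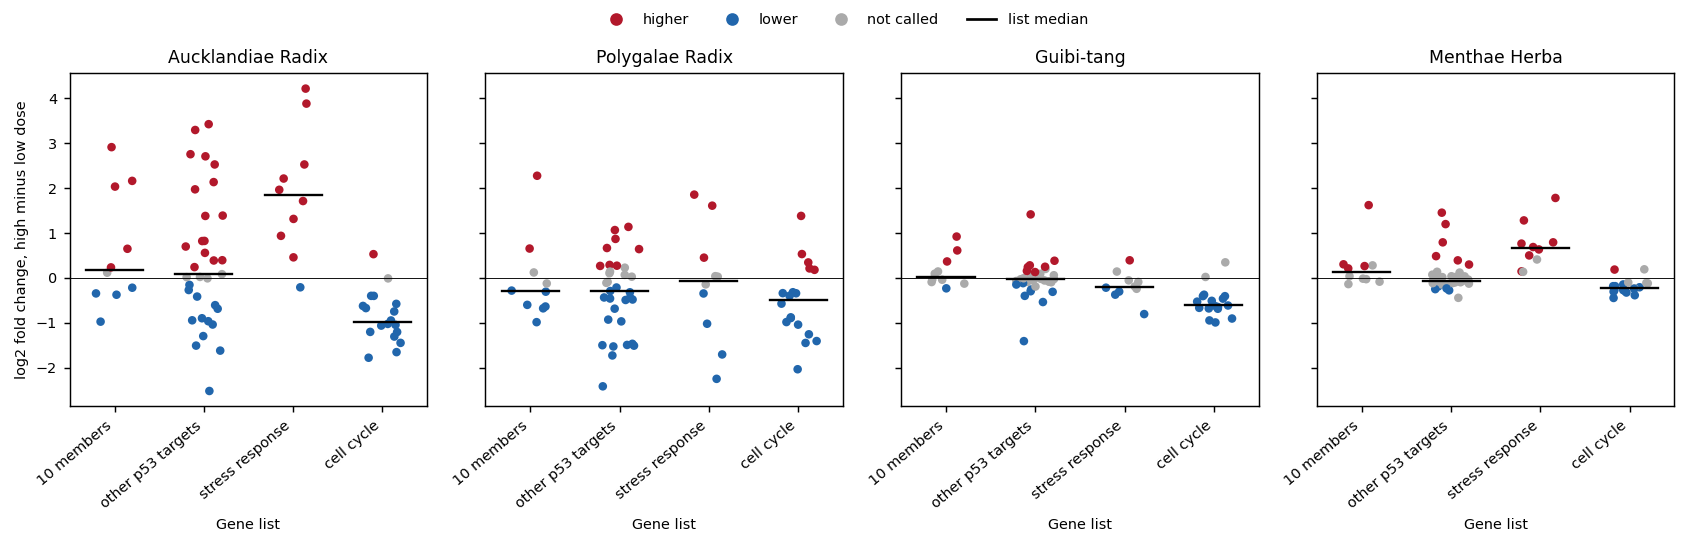
Log2 fold change of each tested gene, high minus low dose, for the 10 members and 3 other gene lists in the 4 extracts with most genes called (panels); red points were higher, blue lower and grey not called, and bars are list medians. In Aucklandiae Radix the stress response has its median at 1.84 and the cell cycle at -0.99, while the 10 members lie on both sides of 0.

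Across the 25 group means of log2 CPM, which share libraries, sets and the wide range of a few high-dose groups, the members fell into patterns that are given here as a description. CDKN1A went with BBC3 (Pearson's r = 0.84), MDM2 (0.80) and GDF15 (0.72). SESN1 went with BTG2 (0.86), TP53I3 (0.86) and CCNG1 (0.83). The lowest values were between CCNG1 and BBC3 (-0.86) and between CCNG1 and GDF15 (-0.81). Among 10695 genes of at least 5 CPM on average, those most like CDKN1A were DNAJB9 (0.95), DNAJB4 (0.95), TMCO3 (0.94), USP35 (0.94) and FAF2 (0.94). BBC3 stood at rank 347 and MDM2 at rank 633 of that order. Those most like GDF15 were KLF6 (0.97), JUN (0.97), FAM135A (0.97), BSDC1 (0.96) and IER3 (0.96), and CDKN1A stood at rank 1564.

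**Figure D5:**
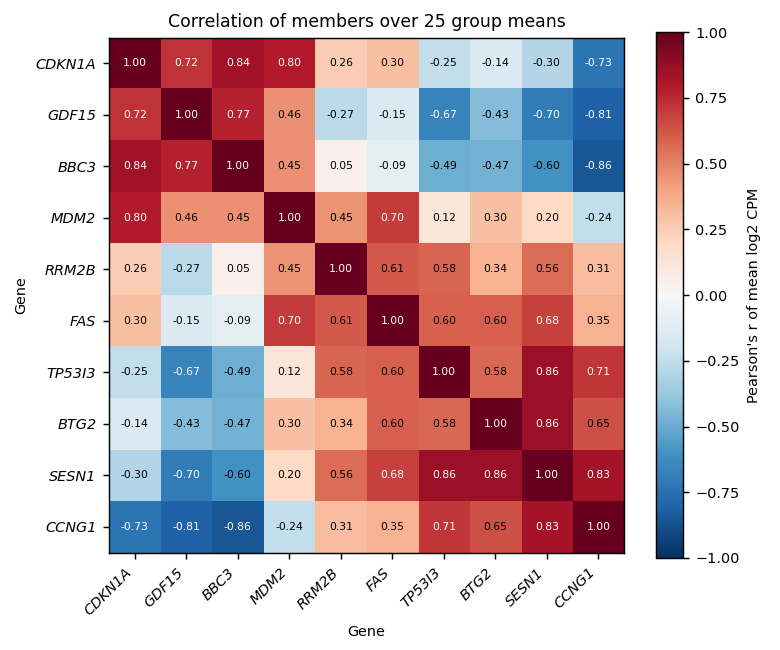
Pearson's r between members over the mean log2 CPM of 25 groups (24 extract doses and vehicle), rows and columns being the 10 genes. CDKN1A, GDF15, BBC3 and MDM2 are positive with one another, at 0.45 to 0.84, and CCNG1 is negative with each of these 4, down to -0.86.

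Okbyeongpung-san had 1 library per dose, so its values carry no replicate check. At 20, 100 and 500 ug/mL CDKN1A had 83.9, 75.3 and 73.4 CPM, MDM2 284, 294 and 306 CPM, and GDF15 112, 113 and 118 CPM. BBC3 had 7.24, 7.06 and 8.24 CPM and CCNG1 198, 215 and 213 CPM at those doses. The log2 ratio of high to low dose lay between -0.19 and 0.19 for the 10 members.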

How the data were processed

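RNA-seq was done on 60 libraries of HepG2 cells, 17.5 to 38.9 M counts each. Per the submitters' processing notes, the authors used FastQC 0.11.9, Trim Galore 0.6.5, STAR 2.7.3a and RSEM 1.3.3 with GRCh38. The deposited values are RSEM expected counts per Ensembl gene, not normalized. Neither the release of the annotation nor strandedness is stated in what was used here. Of the values, 9.97% were not whole, and all were rounded to whole counts. Symbols and coordinates came from GENCODE 29 (GRCh38), and promoter windows from RefSeq (GRCh38.p14).

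Genes were kept by edgeR 4.0.16's filterByExpr (minimum count 10), scaled by TMM and tested with its quasi-likelihood test under R 4.3.3. The fit held 57 libraries in 22 groups, leaving 35 residual degrees of freedom. Okbyeongpung-san, with 1 library per dose, was left out of it. P-values were adjusted by Benjamini-Hochberg over all 16982 genes of a contrast. Log2 CPM used a prior count of 2. The GC trend was a spline of 5 degrees of freedom per library. Alternatives were DESeq2 1.42.0, other scaling and filters, a replicate block, GC correction, pooled low doses and each library left out. The procedure was tested on simulated data with known fold changes.

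No libraries of a group agreed within counting noise (chi-square per gene at least 1.78 over 48 pairs), so each counts as 1. The errors hold both counting error and the spread between libraries. Counting error weighs most on the members with the fewest counts, BBC3 and FAS, with medians of 181 and 405 per library. All 10 members are named. From each further list up to 4 called genes with the largest change are named where they are reported, and all called genes for the lists of regulators and relatives. Genes alike in pattern are the 5 with the highest correlation among genes of at least 5 CPM on average. Some genes of these lists, which can have larger changes than those named, are not reported here. The members and lists were chosen with earlier results of these data known.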

Additional observations from a re-analysis of the deposited data

Results flagged for a closer look

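The rise or fall between high and low dose differed between the extracts of a set for the following members, each by an interaction contrast in edgeR with Benjamini-Hochberg adjusted p under 0.05. All values are differences of 2 log2 fold changes.

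Aucklandiae Radix minus Polygalae Radix, which were given at unlike doses, was 2.04 for CDKN1A, 1.38 for BBC3, 0.91 for RRM2B, 0.77 for MDM2, 0.64 for GDF15, 0.64 for TP53I3, 0.40 for FAS, 0.26 for SESN1 and -0.37 for CCNG1. For RRM2B the extracts' own changes had opposite signs, 0.23 in Aucklandiae Radix and -0.68 in Polygalae Radix. With the GC trend removed, SESN1 (0.11) and FAS (0.25) did not pass.

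Menthae Herba minus Saposhnikoviae Radix was 1.60 for GDF15, 0.45 for CDKN1A and 0.22 for MDM2. Guibi-tang minus Saengmaek-san was 0.80 for GDF15, 0.65 for CDKN1A, 0.24 for MDM2 and -0.28 for CCNG1. MDM2 did not pass without Guibi-tang high-dose replicate 2 (0.17).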

How the results depend on the processing

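Of 4540 values of single members under the alternatives, 4200 kept their side of the threshold without a reversal, 229 lost a call, 78 gained one and 33 reversed. Signs were compared only where the main fit or the alternative called the member, so changes of sign among uncalled values are not counted as reversals. By this count no member reversed between high and low dose, between medium and low dose or in the differences between extracts. All reversals counted were against vehicle, and their cause was not tested. With the GC trend removed, without and with the replicate block, CDKN1A at the high dose became 0.217 and 0.234 in Polygalae Radix and 0.18 in Saengmaek-san. At the low dose MDM2 became -0.11 in Polygalae Radix and Menthae Herba and -0.0952 and -0.0953 in Saposhnikoviae Radix, and TP53I3 in Menthae Herba became 0.16 with GC and block together. At the high dose of Saposhnikoviae Radix MDM2 became -0.0601 and -0.0602 and SESN1 -0.0079 and -0.0074. At the high dose of Guibi-tang CCNG1 became -0.038 and -0.0383 and SESN1 -0.0097 and -0.0094. With pooled low doses in place of vehicle, Saposhnikoviae Radix had MDM2 at -0.0199, SESN1 at -0.0542, BTG2 at -0.19 and RRM2B at -0.0376, and Menthae Herba had BTG2 at -0.10, CCNG1 at -0.0306, SESN1 at -0.0566 and RRM2B at -0.12. In the same setting RRM2B was -0.064 in Saengmaek-san, CCNG1 -0.22, SESN1 -0.044 and RRM2B -0.0664 in Guibi-tang, and CCNG1 -0.033 and RRM2B -0.0539 in Soyo-san.

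The number of the 10 members called against vehicle at the high dose changed with pooled low doses to 5 in Menthae Herba (from 8), 5 in Guibi-tang (from 8), 4 in Soyo-san (from 8), 2 in Saengmaek-san (from 7) and 2 in Saposhnikoviae Radix (from 5). With the GC trend removed, alone or with the block, it was 5 in Guibi-tang and 2 in Saposhnikoviae Radix, where leaving out a library gave 3 to 6. A fit of only the groups compared gave 3 in Polygalae Radix (from 7). Calls over all genes against vehicle under these alternatives are not given here, so these counts are not read as particular to the members. At the low dose of Polygalae Radix leaving out a library gave 2 to 4 (from 5). Between medium and low dose, Polygalae Radix had 2 members with no filter, 0 with only the groups compared and 0 to 4 with a library left out (from 1). Aucklandiae Radix had 4 with only the groups compared and 0 to 1 with a library left out (from 2). Guibi-tang had 1 with no filter, with only the groups compared and with DESeq2, and 0 to 1 with a library left out (from 2). Between high and low dose Soyo-san had 1 with the replicate block and 1 with any library left out (from 2), MDM2 being the one lost (0.20, edgeR adjusted p = 0.0502 with the block).

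Libraries with the same replicate number in the high, medium and low dose of an extract had deviations from their group means that correlated at -0.11 to 0.44, with 11 of 36 pairs over 0.1, so the numbers were not taken to pair the samples; with the block 15 comparisons were higher and 11 lower between high and low dose, against 16 and 11. Over all genes, the calls between high and low dose ran from 57 to 389 in Saposhnikoviae Radix (141 as reported), from 47 to 253 in Saengmaek-san (74) and from 323 to 1020 in Soyo-san (671). Between medium and low dose they ran from 20 to 3005 in Polygalae Radix (1429), from 323 to 1221 in Aucklandiae Radix (739) and from 305 to 1087 in Guibi-tang (611). For the others they were few, 20 in Menthae Herba (6 to 231), 2 in Saposhnikoviae Radix (1 to 92), 1 in Soyo-san (1 to 83) and 0 in Saengmaek-san (0 to 126). With 2 libraries per dose, leaving out 1 leaves a single library that is assumed to vary like the other groups.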
